A study of Rattus norvegicus with 6 samples.

Results

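The interferon-stimulated and antigen presentation genes examined here are 36 rat genes, listed by their known function at a time when earlier results of these data were known. They hold 4 RNA sensors and kinases, 5 interferon regulatory factors (IRFs), 16 antiviral effectors, 5 ISG15, ubiquitin and ADP-ribose enzymes and 6 genes of antigen processing and presentation. A probe was matched to 35 of the 36, among 16575 genes with a matched probe, and no probe was matched to Rigi. Gene expression was measured in neonatal rat ventricular cardiomyocytes (NRVCs) on 6 Agilent arrays with 1 colour, 3 from control cultures and 3 from cultures given C3a. C3a is the fragment that is released when complement C3 is cleaved, and the comparison asks what it does to gene expression in these cells. The ventricles of 8 to 10 Sprague-Dawley rats aged 1 to 2 days were pooled for a preparation, and by the labels the cells were kept in a serum-free medium. The methods of the paper instead describe starvation in low serum before C3a was added. The C3a cultures received 0.5 µg/ml of recombinant C3a for 12 h and the controls the medium alone. The labels number the cultures 1 to 3 in each group without saying that they came from separate preparations, so the p-values measure only the spread between these samples.

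Interferons act through cell-surface receptors and JAK kinases, which activate transcription factors of the STAT family. These factors, some of them together with IRF9, bind the interferon-stimulated response element (ISRE) or the gamma-activated site (GAS) in promoters. The genes switched on in this way sense viral RNA, block steps of virus replication, and cut and load peptides for MHC class I, so that cytotoxic T cells can inspect the cell. Many cells keep some of these genes on at a low level without any infection.

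All 10 genes of a cardiomyocyte marker list were well above background, as judged by the scanner software, on all 6 arrays. Their summed linear signal, in units of the 75th percentile of each array, was 4060 to 5250 in the controls and 5003 to 5629 with C3a. For 10 fibroblast markers the same sum was 98.8 to 112.6 in the controls and 97.8 to 114.4 with C3a. Every array gave clear signal for 7 of them. Endothelial markers, 7 with a probe, summed to 33.4 to 46.0 in the controls and 42.3 to 53.6 with C3a, mostly from Vwf and Kdr. Every array gave clear signal for 5 of these. Of the 5, 4 were above 0 with C3a. The other, Tek, was lower on each C3a array than on any control, by -0.23 (limma, unadjusted p = 0.085, adjusted p = 0.746). Over all genes tested, 4.88% lay wholly below the controls. Sums of different lists rest on different probes and do not give shares of cells. Of 10 macrophage markers, 2 were well above background on all 6 arrays and 3 on none. Their sums were 5.95 to 7.52 in the controls and 6.02 to 6.54 with C3a, mostly from Lyz2. Itgam of the same list was higher on each C3a array than on any control, by 0.63 on the log2 scale (limma, unadjusted p = 0.00705, adjusted p = 0.746). It passed the background mark on 2 of 3 controls only and entered the test through the C3a arrays. Over all genes tested, 8.08% lay wholly above the controls. Of the 5 macrophage markers tested, 3 were higher with C3a and 2 lower. The lower ones, Cd68 at -0.16 and Lyz2 at -0.09, were the 2 with signal on all 6 arrays. The part of Itgam and of each cell type in the results was not tested. Control 1 stood apart. On that array 38.6% of the probes were well above background, against 53.7% to 57.3% on the other 5, and its median local background was 47 intensity units against 23 or 24. All arrays shared 1 slide and were split by treatment between its sides, so that slide side and treatment cannot be told apart.

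Before turning to expression, the promoters of the members were read from RefSeq windows of the GRCr8 assembly, which run from 250 bases before to 50 bases after each annotated transcript start. Windows were found for 28 members. An ISRE-type motif, GAAANNGAAA on either strand, was present in 19 of them (67.9%), against 3.92% of 33469 windows of all genes. A GAS-type motif, TTCNNNGAA, which reads alike on both strands, was present in 10 (35.7%), against 8.87% of all windows. Both motifs were found in 6 members and neither in 5. These are matches of letters and were not tested for binding.

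Stretches of 60 bases are shown for 9 members because they span the range of expression in these cultures, from Ifih1 and Oas1a, which were well above background on no array, to Oas1b, Irf7, Tap2 and B2m, which were so on all 6. All lie before the annotated start and are written 5′ to 3′ on the strand of the gene. Capitals mark 1 match to the ISRE-type motif, which in Irf7, Ifit3 and Tap1 lies on the opposite strand.
Ifih1, chr3:67683993-67684052, - strand: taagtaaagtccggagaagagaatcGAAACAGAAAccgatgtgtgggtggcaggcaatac
Irf7, chr1:205800058-205800117, - strand: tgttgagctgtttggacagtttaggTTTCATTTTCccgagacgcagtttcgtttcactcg
Ifit3, chr1:241527257-241527316, + strand: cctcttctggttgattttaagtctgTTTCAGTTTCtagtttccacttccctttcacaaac
Oas1a, chr12:41330406-41330465, + strand: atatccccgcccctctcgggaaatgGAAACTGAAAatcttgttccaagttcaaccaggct
Oas1b, chr12:41395871-41395930, - strand: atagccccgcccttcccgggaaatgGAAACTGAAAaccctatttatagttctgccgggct
Bst2, chr16:18255058-18255117, - strand: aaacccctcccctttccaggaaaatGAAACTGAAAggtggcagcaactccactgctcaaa
Tap1, chr20:4668630-4668689, - strand: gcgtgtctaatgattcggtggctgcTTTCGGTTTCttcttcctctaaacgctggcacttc
Tap2, chr20:4652303-4652362, - strand: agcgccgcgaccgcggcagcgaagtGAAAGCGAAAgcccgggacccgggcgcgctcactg
B2m, chr3:129549155-129549214, + strand: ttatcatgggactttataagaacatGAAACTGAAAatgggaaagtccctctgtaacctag

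Read on the strand that carries the motif, the same core, GAAACTGAAA, was found in 6 members, namely Ifit3, Oas1a, Oas1b, Bst2, B2m and Trim21. The stretches of Oas1a and Oas1b were identical at 48 of 60 positions. The Tap1 and Tap2 stretches lie near each other on chromosome 20 with that of Psmb8. All 25 ISRE-type matches of the members began before the start, 24 of them within 150 bases of it, and 1 overlapped a GAS-type match. The match nearest to the start was that of Psmb8, a catalytic subunit of the immunoproteasome, which spans the start itself.

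**Figure D1:**
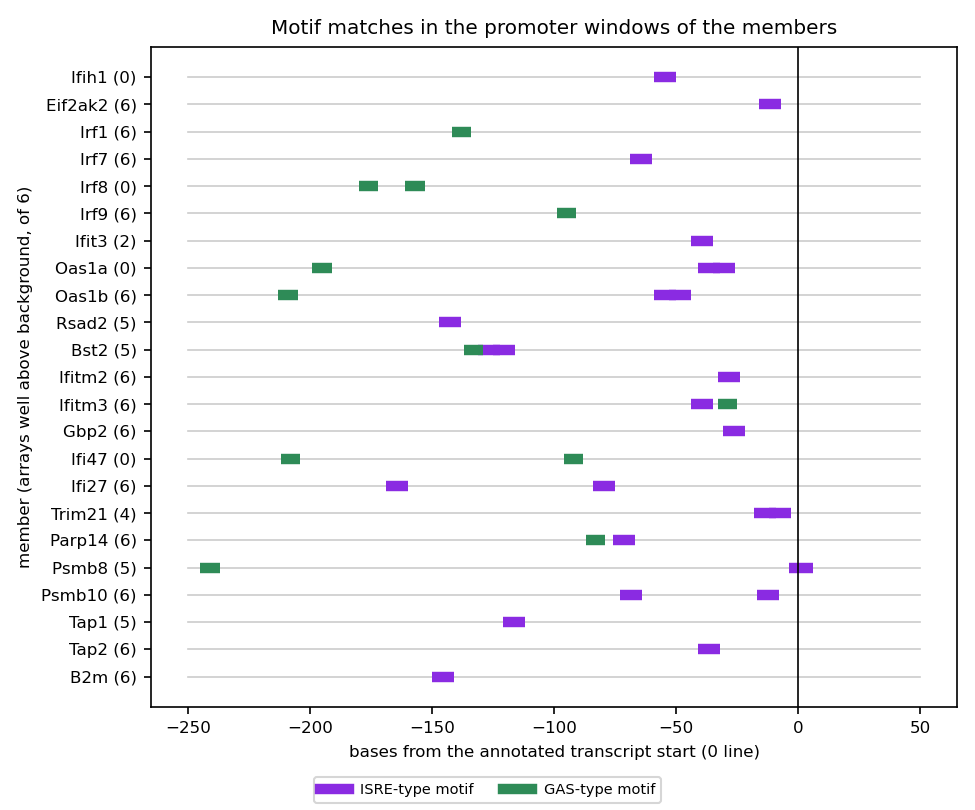
Positions of ISRE-type (purple) and GAS-type (green) motif matches, in bases from the annotated transcript start, in the 300-base windows of the 23 members that hold either motif; the number after each name is on how many of the 6 arrays that gene was well above background. ISRE-type matches gather within 150 bases before the start, also in Ifih1 and Oas1a, the 2 members with this motif and signal on no array.

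The motif was found in members with and without signal. With only 5 windows of members without signal, the counts cannot show whether the motif goes with expression. It was present in 11 of 16 windows of members that were well above background on all 6 arrays, in 6 of 7 of those with signal on some arrays and in 2 of 5 of those with signal on none. Over all genes with a window it was present in 2.81% of the genes with signal on all 6 arrays and in 4.87% of those with signal on none.

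At rest, 19 of the 35 members (54.3%) were well above background on all 3 control arrays, against 51.6% of the 16575 genes with a probe. The same 19 members were so on all 6 arrays. With control 1 left out, 27 members (77.1%) were well above background on both other controls, against 65.1% of all genes. The 8 members gained in this way were Ifit3, Rsad2, Bst2, Usp18, Trim21, Parp9, Psmb8 and Tap1, each of which was below the mark on control 1 and above it on both other controls. No array gave signal well above background for 7 members (20%), against 29.9% of all genes. The cultures thus held RNA of most members without added C3a, at a share close to that of all genes when control 1 is counted. In these bulk cultures, fewer cells of a type and less RNA per cell cannot be told apart.

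Among the RNA sensors, the transcript of Eif2ak2, the kinase PKR that halts translation when it binds double-stranded RNA, was well above background on every array. Its log2 signal, with the 75th percentile of each array set to 0, was -1.26, -1.03 and -1.40 in controls 1 to 3 and -1.42, -1.55 and -1.38 with C3a. Ifih1, which encodes the sensor MDA5, was well above background on no array. Dhx58, which encodes LGP2, was so only on control 2.

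The IRFs are the transcription factors of the pathway. Irf3, which most cells hold in a latent form, Irf7, which amplifies interferon production, Irf1, and Irf9, which gives the type I interferon response its DNA binding, were well above background on all 6 arrays. Irf7 read 2.29, 1.88 and 2.09 in controls 1 to 3 and 2.23, 2.24 and 2.07 with C3a, so that the groups overlapped. Irf8, a factor of myeloid and lymphoid cells, was well above background on no array.

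The antiviral effectors were split. Mx1, Mx2, Oas1b, Ifitm1, Ifitm2, Ifitm3, Gbp2 and Ifi27 were well above background on all 6 arrays. Mx proteins are GTPases that trap viral particles, Ifitm proteins block the fusion of viruses with cell membranes, and Gbp2 is a GTPase that acts on pathogens inside the cell. In contrast, Ifit1 and Ifit2, which bind viral RNA or restrain its translation, Oas1a and Oasl of the oligoadenylate synthetase family and the GTPase gene Ifi47 were well above background on no array. The intensity of Ifit1 was 15.3, 3.54 and 3.31 in controls 1 to 3 and 2.98, 3.86 and 3.13 with C3a, on the linear scale of the scanner. Only control 1 was high, and that is the array with the higher background.

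Within the oligoadenylate synthetases, the neighbouring genes Oas1a and Oas1b, whose promoter stretches are given above, were unlike in detection. Both probes of Oas1a were below the mark on all 6 arrays, and the probe of Oas1b was above it on all 6. The probe of Oas1b read 6.45, 6.21 and 6.46 in controls 1 to 3 and 6.53, 6.46 and 6.54 with C3a. How far each probe can bind RNA of the other copy was not tested, and the same limit holds for Ifitm1, Ifitm2 and Ifitm3. Rsad2, whose product viperin makes a chain-terminating nucleotide, and Bst2, whose product tetherin holds budding viruses to the cell, missed the mark on control 1 only, and a second probe of Rsad2 passed it on no array.

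Isg15, a ubiquitin-like protein that is joined to other proteins, and Parp14, an ADP-ribosyltransferase, were well above background on all 6 arrays. Isg15 read 0.83, 0.30 and 0.84 in the controls and 0.69, 0.62 and 0.46 with C3a, and control 2 was the lowest. Usp18, the protease that removes ISG15, and Trim21, a ubiquitin ligase that binds antibody in the cytosol, passed the mark on 2 of 3 control arrays and on 2 of 3 C3a arrays. A second probe of Trim21 passed it on no array. Parp9 missed the mark on control 1 only.

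All 6 antigen presentation genes gave signal on at least 2 control arrays. Psmb9 and Psmb10, catalytic subunits that replace their counterparts in the immunoproteasome, Tap2, a part of the pump that carries peptides into the endoplasmic reticulum, and B2m, the light chain of MHC class I, were well above background on all 6 arrays. B2m read 3.75, 3.60 and 3.75 in the controls and 3.83, 3.71 and 3.65 with C3a. Psmb8 and Tap1, the partner of Tap2, missed the mark on control 1 only.

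**Figure D2:**
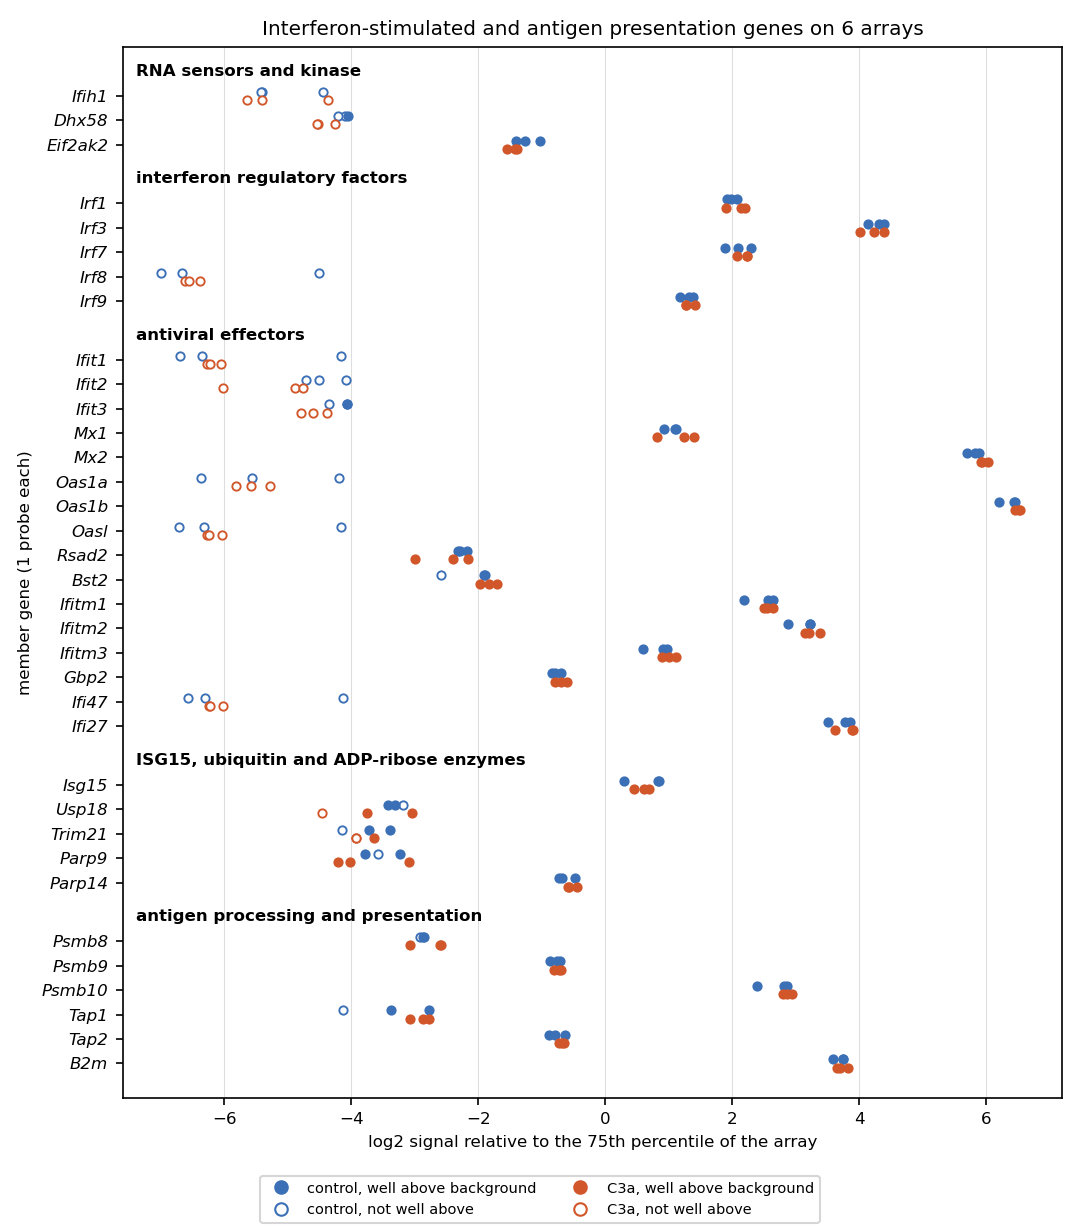
Log2 signal of the 35 members with a probe, with the 75th percentile of each array at 0, for the 3 control arrays (blue) and the 3 C3a arrays (orange); open circles are not well above background. In 19 members all 6 circles are filled and in 7 none is, and the control and C3a circles lie among each other in most members; levels of different genes come from different probes and are not comparable.

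Whether the members move together was examined in the 19 members well above background on all 6 arrays, as the deviation of each array from the mean of its own group. The mean correlation over the 171 pairs of members was 0.32, against 0.12 over pairs of all 8556 genes with signal on all 6 arrays. These values describe 6 arrays that share a slide, and gene pairs that share arrays are not independent. Of the pairs, 92 had a correlation over 0.5 and 26 one under -0.5. The antigen presentation genes (4 members) had a mean correlation of 0.71, the IRFs (4 members) 0.51 and the effectors (8 members) 0.23.

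Much of this rested on 1 array. Control 2 was the lowest control for 15 of the 19 members (78.9%), against 54.8% of all genes, and the median deviation on it was -0.12 on the log2 scale against -0.05. Without control 2 the mean correlation was 0.12 for the members and 0.14 for all genes. Leaving out any other array gave 0.26 to 0.37 for the members. With quantile normalization of the arrays in place of scaling, the members had 0.12 and all genes 0.02, and the antigen presentation genes had 0.53, the IRFs 0.29 and the effectors -0.02.

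The members did not all follow the same course. Isg15, Irf7, Psmb9 and Ifitm1 had the highest mean correlations with the other members, 0.56, 0.55, 0.55 and 0.54. Eif2ak2, Mx1 and Gbp2 ran the other way, with means of -0.52, -0.38 and -0.30. Eif2ak2 was highest on control 2, where 15 others were lowest. Mx1 was lowest on C3a array 1, at 0.82, and highest on C3a array 3, at 1.40.

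**Figure D3:**
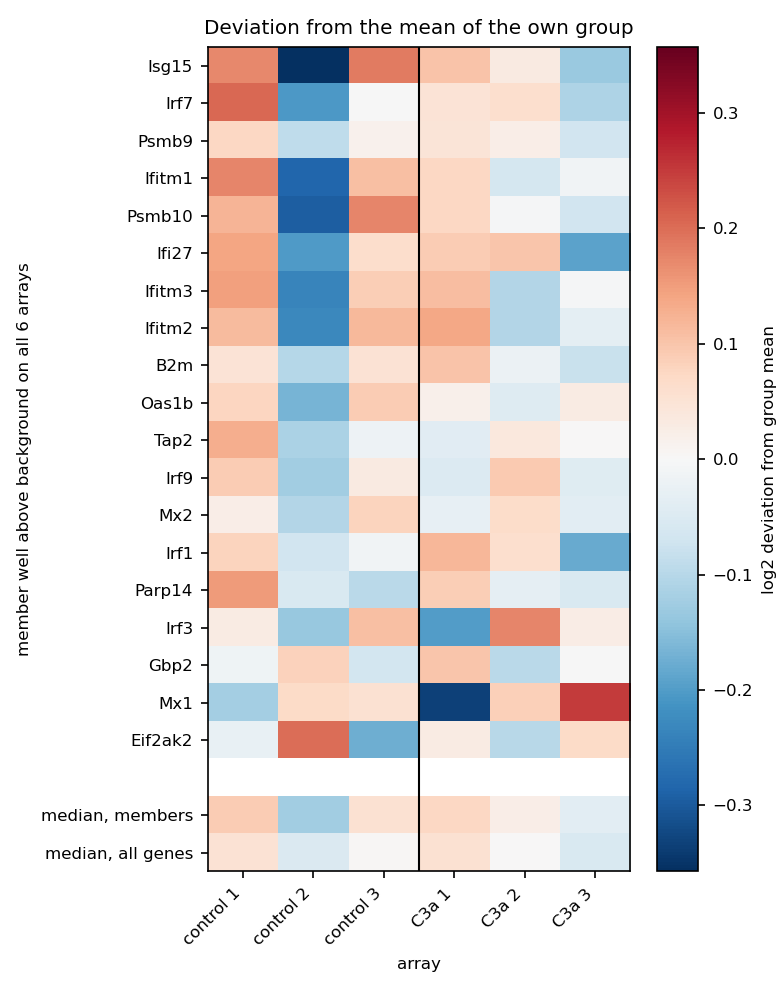
Deviation of each array from the mean of its own group, on the log2 scale, for the 19 members well above background on all 6 arrays, ordered by their mean correlation with the others, with the medians of the members and of all 8556 such genes below. The column of control 2 is blue in 16 of 19 members, and Eif2ak2, Mx1 and Gbp2 run against the others.

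With C3a, none of the members was called. Tested were the 24 members with a probe well above background on every array of either group. No member passed an adjusted p of 0.05 by limma with Benjamini-Hochberg adjustment over all 23438 kept probes, where the share called was 0%. The adjusted p of the members was 0.746 to 0.958, and the lowest over all probes was 0.705. At an unadjusted p under 0.05 none of the 24 was called either, against 2.89% of 10390 genes higher and 2.46% lower. Among the 19 members with signal on all 6 arrays the difference was above 0 in 16, with a median of 0.094 on the log2 scale. The median was 0.033 over all genes with such signal, and 6284 of all 10390 genes tested were above 0. Of the 24 members tested, 19 were above 0, and 17 after quantile normalization, with a median of 0.07. With no normalization between arrays, the median of all genes tested moved down to -0.29. The median of the 24 members was then -0.23, and 1 of them was above 0. Without control 2, 13 of the 24 were above 0, with a median of 0.02.

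Among the 24 members tested, Mx2 and Oas1b were the 2 whose C3a arrays all lay above all controls, and none lay wholly below. Over all genes, 8.08% lay wholly above and 4.88% wholly below, so 2 of 24 members is close to the background. Mx2 read 5.83, 5.70 and 5.88 in the controls and 5.93, 6.03 and 5.92 with C3a. The lowest C3a array was thus above the highest control by less than the spread of the controls. The log2 difference of Mx2 was 0.16 with an SE of 0.097 and a 95% interval of -0.07 to 0.39 (adjusted p = 0.746, limma; exact permutation p = 0.1, two-sided, the smallest that 3 against 3 can give). After quantile normalization it was 0.04.

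For Oas1b, the values given above differed by 0.14 with an SE of 0.11 and an interval of -0.11 to 0.39 (adjusted p = 0.749, limma; exact permutation p = 0.1, two-sided). Control 2 was low and the other controls lay just under the lowest C3a array. After quantile normalization the log2 difference of Oas1b was -0.0064, and without control 2 it was 0.06.

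Eif2ak2 had the lowest unadjusted p of the members, 0.112 in the limma fit. Control 2 was high and C3a array 2 low, and control 3 lay among the C3a arrays, so the groups overlapped. The log2 difference was -0.22 with an SE of 0.12 and an interval of -0.52 to 0.07, and a second probe of the gene gave -0.20. Without control 2 the difference was -0.12.

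Ifitm3 read 0.98, 0.59 and 0.92 in the controls and 1.12, 0.90 and 1.00 with C3a. Control 2 was low and the other controls lay among the C3a arrays. The log2 difference was 0.18 with an SE of 0.13. Psmb10 read 2.82, 2.40 and 2.87 in the controls and 2.94, 2.86 and 2.80 with C3a. Again control 2 alone was low, and the difference was 0.17 with an SE of 0.14. Without control 2 the differences were 0.06 for Ifitm3 and 0.03 for Psmb10.

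Ifitm2 read 3.23, 2.89 and 3.23 in the controls and 3.39, 3.15 and 3.22 with C3a, and Ifitm1 read 2.64, 2.18 and 2.57 against 2.64, 2.51 and 2.55. In both genes control 2 was low and the remaining arrays overlapped. The log2 differences were 0.14 and 0.10. Without control 2 they were 0.02 and -0.04.

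Mx1, beside Mx2 the other Mx gene, read 0.93, 1.12 and 1.11 in the controls and 0.82, 1.24 and 1.40 with C3a. The C3a arrays lay on both sides of the controls, and the log2 difference of 0.10 was -0.02 without C3a array 3. Irf1 read 2.07, 1.92 and 1.98 against 2.20, 2.14 and 1.90, a difference of 0.09. Parp14 read -0.48, -0.68 and -0.73 against -0.45, -0.57 and -0.59, also a difference of 0.09. In all of these the groups overlapped.

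The other 9 members with signal on all 6 arrays differed by -0.07 to 0.09 on the log2 scale. They were Irf3 at -0.07, Isg15 at -0.07, Irf9 at 0.02, B2m at 0.03, Psmb9 at 0.04, Gbp2 at 0.07, Tap2 at 0.09, Ifi27 at 0.09 and Irf7 at 0.09. A second probe of Irf3 gave -0.31. Among these 19 members, the interval that reached furthest above 0 was that of Psmb10, with an upper end of 1.42-fold.

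In 5 members the mark was missed on control 1 only, and their SEs were 0.15 to 0.31, against 0.095 to 0.17 in the 19 members with signal on all 6 arrays. They entered the test through the C3a arrays. Tap1 read -4.14, -2.78 and -3.37 in the controls and -2.78, -3.07 and -2.88 with C3a. The low value is that of control 1, where the probe was not well above background. The log2 difference was 0.52 with an SE of 0.31 and an interval of -0.22 to 1.26. A second probe of Tap1 passed the mark on 1 control and no C3a array and was not tested. It read -4.16, -4.29 and -5.67 in the controls and -5.21, -5.82 and -5.41 with C3a. Bst2 differed by 0.30, Psmb8 by 0.13, Parp9 by -0.24 and Rsad2 by -0.26. Rsad2 was low on C3a array 2 only, and its other arrays overlapped.

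The antigen presentation genes with signal on all 6 arrays, Psmb10, Tap2, Psmb9 and B2m, differed by 0.17, 0.09, 0.04 and 0.03, and none passed the test. Psmb10 and Psmb9 can be set beside the 14 subunits of the constitutive proteasome, of which 9 were above 0, with a median of 0.07. Over all genes tested, 6284 of 10390 were above 0.

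Dhx58 and Ifit3 were not tested, since neither group was well above background throughout. Ifit3 read -4.35, -4.06 and -4.06 in the controls, with controls 2 and 3 above the mark, and -4.80, -4.61 and -4.38 with C3a, all below it. Dhx58 read -4.10, -4.06 and -4.20 against -4.53, -4.25 and -4.54, with control 2 alone above the mark. In both genes, and in Ifit2, which had signal on no array, each C3a array lay below every control. Over all genes tested, 4.88% lay wholly below, and untested genes were not counted. So near to background, no fold is given.

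**Figure D4:**
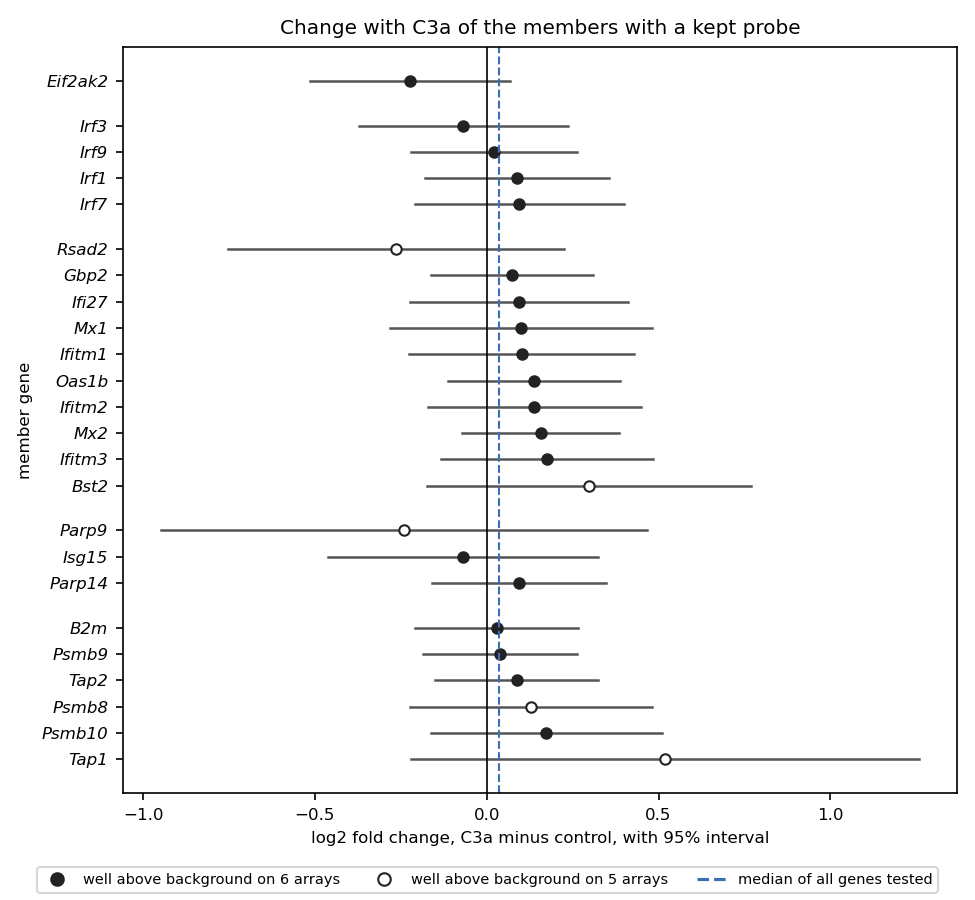
Log2 fold change of C3a against control with its 95% interval for the 24 members tested, grouped by role; filled circles are well above background on 6 arrays, open circles on 5, and the dashed line is the median of all 10390 genes tested. Every interval crosses 0, and the widest belong to Tap1 and Parp9.

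The rest of the pathway was examined with lists grouped by function. Of 10 interferon ligands and receptors with a probe, 4 were well above background on no array, among them Ifng and Ifna2, and Ifnb1 was so on 1 C3a array only. Ifna4 was well above background on all 6 arrays and differed by 0.16. The receptor chains Ifnar1, Ifngr1 and Ifngr2 had signal on all 6 arrays, with log2 differences of -0.18, -0.10 and 0.07. Of 13 signal transducers, 11 were tested and none passed the adjusted threshold. Stat2, a partner of IRF9, differed by 0.11. Tyk2, a kinase bound to the receptor of type I interferon, differed by -0.30 with all C3a arrays below all controls (limma, unadjusted p = 0.040, adjusted p = 0.746). This was 1 of the 11 transducers tested, beside 4.88% of all genes tested. Ifngr2 was the 1 of 5 ligands and receptors tested whose C3a arrays all lay above all controls, beside 8.08% of all genes tested.

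In the sensing list, 6 of 10 genes with a probe were tested, with 3 above 0, beside 6284 of 10390 over all genes. Tlr9, an endosomal sensor of DNA, read -2.98, -3.19 and -2.77 in the controls and -2.44, -2.66 and -2.17 with C3a. All C3a arrays lay above all controls, by a log2 difference of 0.56 (limma, unadjusted p = 0.011, adjusted p = 0.746). This was 1 of the 6 genes tested, beside 8.08% of all genes tested. Tlr9 passed the background mark on 2 of 3 controls only, so it entered the test through the C3a arrays, where it is high. Of 27 further interferon-stimulated genes with a probe, 14 had signal on all 6 arrays and 5 on none, and 13 of the 20 tested were above 0, with a median of 0.04. Cxcl10, a chemokine that draws T cells, differed by 0.04, and Slfn2, which passed the mark on 2 of 3 controls, by -0.77 (limma, unadjusted p = 0.029, adjusted p = 0.746). Slfn2 read -2.26, -1.35 and -2.34 in controls 1 to 3 and -2.61, -2.56 and -3.10 with C3a. Control 2 stood well above the other controls. All C3a arrays of Slfn2 lay below all controls, which held for 1 of the 20 and for 4.88% of all genes tested.

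Of 13 genes of MHC class I and peptide loading with a probe, 11 had signal on all 6 arrays. Among the 12 tested, 9 were above 0, with a median of 0.13, against 6284 of 10390 genes with a median of 0.036. RT1-A2, RT1-N3, RT1-T24-4 and Tapbp, the chaperone tapasin, were higher on each C3a array than on any control, and Calr, the chaperone calreticulin, was lower on each. These are 4 and 1 of 12 genes, beside 8.08% and 4.88% of all genes. RT1-N3 differed by 0.56 and Calr by -0.43 (limma, unadjusted p = 0.039 and 0.025, adjusted p = 0.746 for both). RT1-N3 passed the background mark on 2 of 3 controls only and entered the test through the C3a arrays. RT1-S3 went the other way, by -0.29 (limma, unadjusted p = 0.059, adjusted p = 0.746). RT1-CE5 and RT1-M3-1 differed by 0.22 and 0.16, and in these and RT1-S3 the groups overlapped. The RT1 genes are close copies of each other, so their probes may share targets. Of 10 MHC class II genes, 5 were well above background on no array, among them Cd74, the invariant chain, and 2 on all 6.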

How the data were processed

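Expression in NRVCs was measured on 6 arrays, 3 control and 3 C3a, grouped by the condition and number in their labels. The authors deposited the spot intensity written by Agilent Feature Extraction 11.5.1.1, already corrected for background and not normalized between arrays, and a table of log2 values scaled to the 75th percentile. Precision is limited by the number of arrays.

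Control spots and spots with an outlier flag were left out, the spots of a probe were averaged on the linear scale, and the log2 of the 75th percentile over an array's probes was subtracted. A probe passed the background mark on an array when 50% or more of its spots did. Kept were 23438 of 45598 probes, those past the mark throughout either group. Accessions matched to the RefSeq table of GRCr8 named 21109 probes (46.3%). The probe with the highest mean signal stood for the gene; 8 members had more than 1 probe and 4 more than 1 kept probe.

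Groups were compared two-sided with lmFit and eBayes of limma 3.58.1 in R 4.3.3, and p-values of the kept probes were adjusted after Benjamini and Hochberg. Of the steps, the limma fit alone was tested on simulated arrays. Promoters were searched in Python 3.11.15 and figures drawn with matplotlib 3.10.9. The members and lists were chosen with earlier results of these data known, and 1 listed gene is left unreported. Values on every array were given for members called, members whose groups do not overlap, the 8 members with the largest log2 difference among those with signal on all 6 arrays, and a few others chosen after their values were seen.

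Alternatives were quantile or no normalization, another percentile, normexp (offset 50, on the median in place of the mean signal of a spot), other filters, the deposited log2 table, a variance trend, array weights, all kept probes of a gene, the methods' test of 2 groups, the replicate block, 2 of 3 controls for detection and each array left out in turn. Detection without control 1 and the correlations without each array were added after seeing the data. Slide and scan could not serve as blocks, since there was 1 of each.

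Arrays with the same number deviated together from their group means (correlations over the kept probes of 0.28, 0.32 and 0.31, against -0.26 to -0.09 for different numbers). Deviations cancel out within a group, so the negative values for different numbers follow in part from the positive ones. The numbers may thus pair the samples by these values, but the labels give only the number. The main fit, its intervals and the permutation p leave such pairing out. With the replicate block in limma, 601 genes were higher and 630 lower at an unadjusted p under 0.05, in place of 300 and 256. The lowest adjusted p over all probes was then 0.22, in place of 0.705.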

Additional observations from a re-analysis of the deposited data

How the results depend on the processing

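No member passed an adjusted p of 0.05 under any of the alternatives run for the comparison with C3a. With the replicate block, 0 members were called, with a lowest adjusted p of 0.463 among them, and the block changed no other call of a member. Without normalization between arrays, 4 probes were called lower, 2 members (Eif2ak2 and Rsad2) were lower at an unadjusted p under 0.05, 1 member was above 0 and the median of the members was -0.23. There the log2 differences turned to -0.17 for Mx2, -0.19 for Oas1b, -0.15 for Ifitm3, -0.15 for Psmb10, -0.19 for Ifitm2, -0.22 for Ifitm1, -0.22 for Mx1, -0.24 for Irf1 and -0.23 for Parp14, beside a shift of -0.28 in the median of all probes. Quantile normalization turned Oas1b to -0.0064. With no filter on dim probes, 1 member (Ifit3) was lower at an unadjusted p under 0.05. Leaving out each array in turn, 0 to 1 members were higher and 0 to 1 lower at that threshold: Tap1 was higher without control 2, and Psmb8 higher and Parp9 lower without C3a array 3. The members above 0 numbered 13 to 20 and their median was 0.02 to 0.12. Ifitm1 ranged from -0.039, without control 2, to 0.188, and Mx1 from -0.024, without C3a array 3, to 0.267. The mean correlation of the members was 0.12 to 0.37 with each array left out, 0.12 after quantile normalization and 0.80 without normalization, where that of all genes was 0.77. Members detected at rest numbered 19 on all 3 controls and 27 on at least 2. The causes of these changes were not tested. With 3 arrays a group and SEs of 0.095 to 0.31, small changes of the members were not detectable, and for the 5 dim members the signal over background on control 1 limits the values.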
